A study of Mus musculus with 6 samples.

Results

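Expression of 8 collagen chains was compared in mouse hearts, namely *Col6a1*, *Col6a2* and *Col6a3* of collagen VI, *Col8a1* and *Col8a2* of collagen VIII, *Col12a1* and *Col14a1* of the fibril-associated collagens XII and XIV, and *Col16a1* of the related collagen XVI. They were chosen by gene symbol from 27307 genes with a symbol on the array. The rule uses no measured value, but these genes were picked with earlier results of these data known. The Entrez identifier of all 8 gave the same symbol in RefSeq. The array carries 18 probes for them, 1 for *Col6a1*, *Col8a1* and *Col14a1*, 2 for *Col8a2*, 3 for *Col6a2*, *Col6a3* and *Col16a1*, and 4 for *Col12a1*. All 6 animals were male C57BL/6J *Clk4*-cKO mice (α-MHC-MerCreMer; *Clk4* fl/fl), in which tamoxifen activates a Cre recombinase driven by the α-MHC promoter and so deletes floxed exons of the kinase gene *Clk4* in cardiomyocytes. The control group of 3 mice had received AAV NEXN-WT, and the other 3 had received AAV NEXN-S437E, a mutant of the Z-disc protein nexilin that mimics phosphorylation by CLK4. Both AAV9 vectors carried a CMV promoter, which is not restricted to cardiomyocytes, and were given before tamoxifen. No heart with an intact *Clk4* gene was analysed here, so every difference is one between the AAV groups in *Clk4*-deleted hearts. Total RNA of the myocardium was hybridised in a single colour, 1 array per mouse, and all 6 arrays lay on 1 slide.

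Collagens VI, VIII, XII, XIV and XVI are not the main bulk of the cardiac fibrils but the matrix around and between them. Collagen VI is built from an α1, an α2 and an α3 chain, is secreted as tetramers and forms beaded microfibrils close to the basement membrane of muscle cells, and in the heart it comes mainly from fibroblasts. Collagen VIII forms networks of short chains in vessel walls and remodelling tissue. Collagens XII and XIV are FACITs, that is fibril-associated collagens with interrupted triple helices, which sit on the surface of collagen I fibrils. Collagen XVI is a FACIT-like chain that binds integrins. In the annotation deposited with the arrays, the 3 collagen VI chains carry the terms ECM-receptor interaction, PI3K-Akt signaling pathway and sarcolemma, both collagen VIII chains carry basement membrane, *Col14a1* carries collagen fibril organization and ventricular cardiac muscle tissue development, and *Col16a1* carries integrin binding.

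The probes are 60 bases long and were placed on the mm9 assembly by the deposited annotation. *Col6a1* (chr10:76171538-76171597) and the *Col6a2* lead probe (chr10:76058931-76058990) lie near each other on the minus strand of chromosome 10. The lead probe of *Col6a3* is at chr1:92663663-92663722, of *Col8a1* at chr16:57627033-57627092, and of *Col12a1* at chr9:79446895-79446954, all on the minus strand. Those of *Col8a2* (chr4:125991441-125991500), *Col14a1* (chr15:55347733-55347792) and *Col16a1* (chr4:129776333-129776392) are on the plus strand. Whether a probe lies in coding sequence or a UTR was not determined for most of them, as no mm9 genome was used here. In 3 probes the letters themselves show the repeat that makes a collagen helix, a glycine codon followed by a pair of other codons, over and over in an open frame, for a run of 6 in the second *Col6a3* probe, 4 in the *Col14a1* probe and 5 in a *Col16a1* probe that gave no signal. They are shown 5′ to 3′ with that run of glycine codons in capitals.
Col6a3 A_66_P127268 (chr1:92689602-92690594, minus strand, across a splice junction): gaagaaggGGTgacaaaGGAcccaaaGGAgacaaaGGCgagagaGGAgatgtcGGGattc
Col14a1 A_55_P2159522: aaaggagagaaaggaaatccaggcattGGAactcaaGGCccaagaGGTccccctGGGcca
Col16a1 A_55_P2056735 (chr4:129756457-129756516, plus strand): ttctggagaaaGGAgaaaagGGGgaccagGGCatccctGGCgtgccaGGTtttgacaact

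Levels are given as log2 signal relative to the 75th percentile of the probes detected on all 6 arrays, so that 0 is a bright probe, each unit is a doubling, and values of different probes cannot be ranked against each other. A probe was called detected where the scanner software found it well above background, and it was tested where this held on all 3 arrays of at least 1 group. Of 56605 probes, 22998 were tested and 21099 were detected on all 6 arrays. A probe was called lower or higher by the 2-fold rule, a 2-fold change with an unadjusted limma p below 0.05, which takes the thresholds of the study's methods but puts limma in place of their unpaired two-tailed test, and separately at a Benjamini-Hochberg adjusted p of 0.05 over all tested probes. The lead probe of a gene was its tested probe of highest mean. NEXN-WT replicate 1 stood apart over the array as a whole. It differed from the other NEXN-WT arrays by 0.40 on average (mean absolute log2 difference), against 0.24 to 0.34 for the other 5 arrays within their groups, so the results for the 8 genes are given with and without it. The *Clk4* lead probe was at -1.26 ± 0.24 with NEXN-WT and -1.21 ± 0.24 with NEXN-S437E (SD, n = 3), and the *Nexn* lead probe at 0.92 ± 0.38 and 0.86 ± 0.37. Neither pair differed beyond its spread, and since both groups carry the deletion and a *Nexn* vector, neither gene checks the labels. The 9 cardiomyocyte markers, among them *Myh6* and *Tnnt2*, were detected on all 6 arrays.

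The collagen chains detected on all 6 arrays were lower in the NEXN-S437E hearts. Of the 8 probes detected on all 6 arrays, which report *Col6a1*, *Col6a2*, *Col6a3*, *Col8a1*, *Col14a1* and *Col16a1*, 7 were lower by the 2-fold rule, against 1.32% of all probes detected on all 6 arrays (279 of 21099). All 8 had every NEXN-S437E array below every NEXN-WT array, a pattern found in 11.6% of the same background. The median log2 fold change of the 6 genes (NEXN-S437E minus NEXN-WT, lead probes) was -1.48, and -1.07 without NEXN-WT replicate 1, where the median over all tested probes was 0.01. A further 3 tested probes were the lead probes of *Col8a2* and *Col12a1* and the second probe of *Col6a3*. They passed the filter only through the NEXN-WT arrays, which favours a lower value with NEXN-S437E. Nothing is read from their calls (3 of 3 lower, where 2.03% of all 22998 tested probes were). No tested probe of these genes was higher. At the adjusted p, limma called 0 of the 11 tested collagen probes lower (adjusted p from 0.132 to 0.241), against 0.126% of all tested probes. All 11 nevertheless had an unadjusted p below 0.05. With the unpaired two-tailed test of the study's methods, 7 of the 8 probes detected on all arrays passed the same thresholds (0.957% of that background were lower), as did *Col8a2*, while the *Col12a1* lead probe and the second *Col6a3* probe did not, and 0 passed after adjustment. Without NEXN-WT replicate 1, 4 of the 8 were lower by the 2-fold rule (0.701% of that background), namely the lead probes of *Col6a3*, *Col8a1*, *Col14a1* and *Col16a1*, and 2 passed the adjusted p (0.389%), those of *Col6a3* and *Col8a1*. With the normexp background correction, 5 of the 8 were lower by the 2-fold rule (0.64%), the lead probes of *Col6a1*, *Col6a2*, *Col6a3*, *Col8a1* and *Col16a1*.

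**Figure D1:**
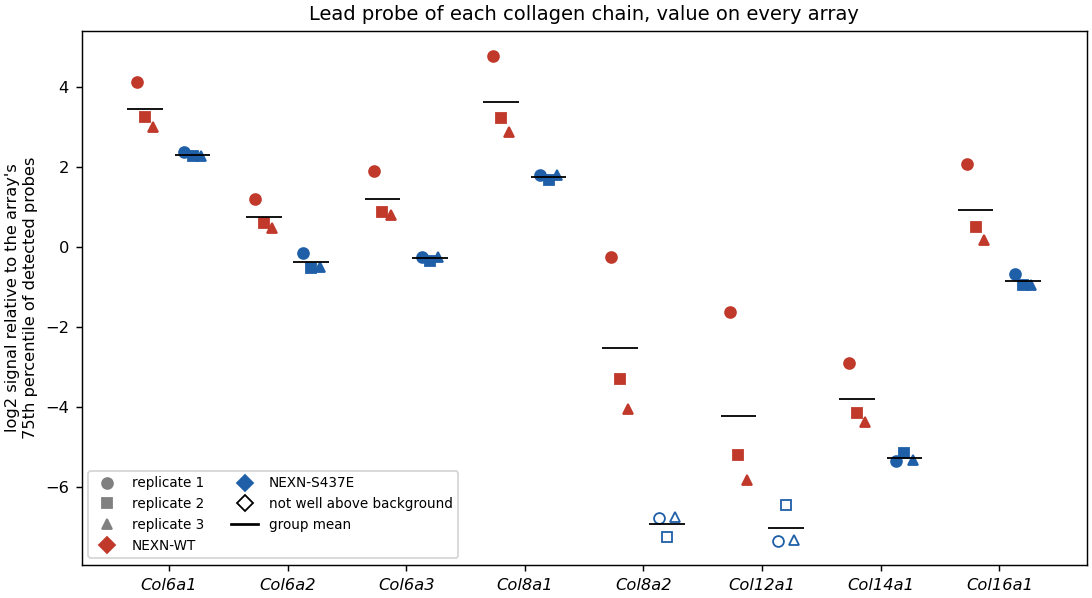
Log2 signal of the lead probe of each chain relative to the 75th percentile of detected probes (vertical axis) on the 3 NEXN-WT arrays (red) and the 3 NEXN-S437E arrays (blue), with the replicate shown by symbol, the group mean by a bar and arrays not well above background by open symbols. For all 8 genes the blue points lie below the red, NEXN-WT replicate 1 is the highest point, and the NEXN-S437E points of *Col8a2* and *Col12a1* are all open.

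*Col6a1*, the α1 chain of collagen VI, was at 4.14, 3.24 and 3.01 in NEXN-WT replicates 1 to 3 and at 2.37, 2.29 and 2.28 in NEXN-S437E replicates 1 to 3. The NEXN-S437E hearts lay within 0.1 of each other and 0.64 below the lowest NEXN-WT heart, while the NEXN-WT hearts were spread over 1.13. The fold change was -1.15 (SE 0.28), a 2.22-fold lower level (95% CI 1.41 to 3.49; adjusted p = 0.157 by limma). Without NEXN-WT replicate 1 it was -0.81 (1.76-fold), short of 2-fold, at an adjusted p of 0.0737.

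*Col6a2*, the α2 chain, had 3 tested probes. Its lead probe (A_51_P279639) was at 1.21, 0.59 and 0.46 with NEXN-WT and at -0.15, -0.51 and -0.50 with NEXN-S437E, a fold change of -1.14 (SE 0.22; adjusted p = 0.132 by limma). The second (A_55_P2733787) was at -1.18, -2.29 and -2.45 against -3.13, -3.29 and -3.14, a fold change of -1.21 (SE 0.32). The groups did not overlap on either probe. The third (A_52_P362757) was at -3.30, -4.13 and -3.92 against -4.18, -5.03 and -4.64, where the groups came within 0.05 of each other, and its change of -0.83 (SE 0.28) was under 2-fold. All 3 changes were negative and 2 passed the 2-fold rule. Without NEXN-WT replicate 1 the 3 changes were -0.92, -0.81 and -0.59, and none reached 2-fold. The normexp correction gave -1.04, -0.85 and -0.07, where only the lead probe passed. Within slide row 1, which holds 1 NEXN-S437E array and gives no test, they were -0.91, -1.15 and -0.40.

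*Col6a3*, the α3 chain, whose C-terminal end is cut off after secretion, showed the largest change of the collagen VI lead probes. Its lead probe (A_52_P479262) was at 1.91, 0.88 and 0.81 with NEXN-WT and at -0.25, -0.35 and -0.26 with NEXN-S437E. The gap between the lowest NEXN-WT and the highest NEXN-S437E heart was 1.06, and the NEXN-S437E hearts varied with an SD of only 0.06. The fold change was -1.48 (SE 0.29), 2.80-fold lower (95% CI 1.76 to 4.46; adjusted p = 0.132 by limma). Without NEXN-WT replicate 1 it was -1.13 (2.19-fold) with an adjusted p of 0.025. The second probe, whose helix-coding letters are printed above, was near background, at -4.33, -4.82 and -5.40 against -5.55, -5.69 and -6.36, and was detected on 2 of the 3 NEXN-S437E arrays. Its change was -1.02 (SE 0.32), and -0.76 without NEXN-WT replicate 1. It was -0.06 with the normexp correction, and under both settings, as with the study's own test, the probe was not called. Within slide row 1, with 1 NEXN-S437E array, the difference was -0.70. The third (A_55_P2719394) was detected on no array.

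The chains of collagen VI assemble together, so their relative change was also read within each array, where the change of a difference between probes has a meaning but its size does not. The *Col6a2* minus *Col6a1* difference averaged -2.71 with NEXN-WT and -2.70 with NEXN-S437E, with overlapping arrays (two-sided exact permutation p = 1). The *Col6a3* minus *Col6a1* difference was -2.23, -2.37 and -2.20 with NEXN-WT and -2.62, -2.64 and -2.54 with NEXN-S437E. On the lead probes, the change of *Col6a3* was thus further down than that of *Col6a1* by -0.33, without overlap between the groups. It was further down than that of *Col6a2* by -0.34, with a lowest NEXN-WT difference of 0.28 and a highest NEXN-S437E difference of 0.24. The -0.33 and -0.34 became -0.32 and -0.21 without NEXN-WT replicate 1. The two-sided exact permutation p was 0.1 for each, the smallest that 3 against 3 arrays allow. These differences were looked at after the values of the genes were known. The second *Col6a3* probe, near background, changed by only -1.02, less than *Col6a1* at -1.15, so this order holds for the lead probes only.

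*Col8a1*, the α1 chain of collagen VIII, was at 4.79, 3.23 and 2.88 with NEXN-WT and at 1.79, 1.67 and 1.80 with NEXN-S437E. The NEXN-S437E hearts lay within 0.13 of each other, and the lowest NEXN-WT heart was 1.08 above them. The fold change was -1.88 (SE 0.45), 3.68-fold lower (95% CI 1.77 to 7.62; adjusted p = 0.155 by limma). Without NEXN-WT replicate 1, which was 1.74 above the mean of the other 2 NEXN-WT hearts, the change was -1.30 (2.46-fold) with an adjusted p of 0.0312.

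*Col8a2*, the α2 chain of collagen VIII, had the largest fitted change of the 8 lead probes (-4.40, and -1.58 under the normexp background correction, where *Col8a1* was further down at -1.99). Its lead probe (A_52_P302544) was at -0.25, -3.30 and -4.07 with NEXN-WT, and with NEXN-S437E, where no array had it well above background, the signal was -6.79, -7.25 and -6.77. Against the background floor of the NEXN-S437E arrays, the lowest NEXN-WT heart was higher by at least 1.66. Set against the background floor of those arrays, the level with NEXN-WT was at least 10.3-fold higher (adjusted p = 0.137 by limma), and at least 4.67-fold higher without NEXN-WT replicate 1 (adjusted p = 0.0135). The probe was tested only through the NEXN-WT arrays and against signal at background, so these p-values are given as fitted and not as support. The NEXN-WT hearts themselves differed by 3.82 between replicates 1 and 3. The second probe (A_66_P134043) was detected on no array, at -8.20 to -6.41 with NEXN-WT and -7.47 to -6.91 with NEXN-S437E, so only 1 of the 2 probes for this gene bears on it.

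Of the FACIT chains, only *Col14a1* was detected in both groups, and it differed in the same direction. *Col14a1* was at -2.90, -4.16 and -4.37 with NEXN-WT and at -5.36, -5.15 and -5.34 with NEXN-S437E, all above background. It fell by 1.47 (SE 0.36), to a level 2.77-fold lower (95% CI 1.54 to 4.98; adjusted p = 0.158 by limma), and by 1.02 without NEXN-WT replicate 1 (adjusted p = 0.0512). With the normexp correction the change was -0.42 and the probe was not called. The single *Col14a1* probe has the helix-coding letters shown above.

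*Col12a1* was measured by 4 probes that did not all respond. The only tested one (A_55_P2062469) was at -1.63, -5.20 and -5.84 with NEXN-WT and not well above background with NEXN-S437E, where the signal was -7.35, -6.46 and -7.33. NEXN-WT replicate 1 was 3.88 above the mean of the other 2 NEXN-WT hearts, so this heart carried most of the difference. The level with NEXN-WT was at least 3.22-fold higher (adjusted p = 0.241 by limma), and at least 1.31-fold higher without that heart (adjusted p = 0.157). The 2-fold rule no longer called this probe with the normexp correction (fitted change -0.87) or with the study's own test. As the probe was tested only through the NEXN-WT arrays and set against signal at background, these p-values support no difference, and the lowest NEXN-WT heart was not above the background floor of the NEXN-S437E arrays. A second probe (A_55_P2800119) was above background only in NEXN-WT replicate 1, at -4.20, with the other 5 arrays between -7.86 and -6.22. The remaining 2 (A_52_P378736 and A_55_P2062464) were detected on no array, at -8.65 to -7.94.

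*Col16a1* was at 2.06, 0.51 and 0.18 on its lead probe with NEXN-WT and at -0.67, -0.94 and -0.96 with NEXN-S437E. The groups were separated by 0.84, and NEXN-WT replicate 1 was 1.72 above the mean of the other 2 NEXN-WT hearts. The fold change was -1.77 (SE 0.45), 3.41-fold lower (95% CI 1.65 to 7.07; adjusted p = 0.167 by limma), and -1.20 (2.29-fold, adjusted p = 0.053) without that heart. The other 2 probes, including the helix-coding one printed above, were detected on no array.

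**Figure D2:**
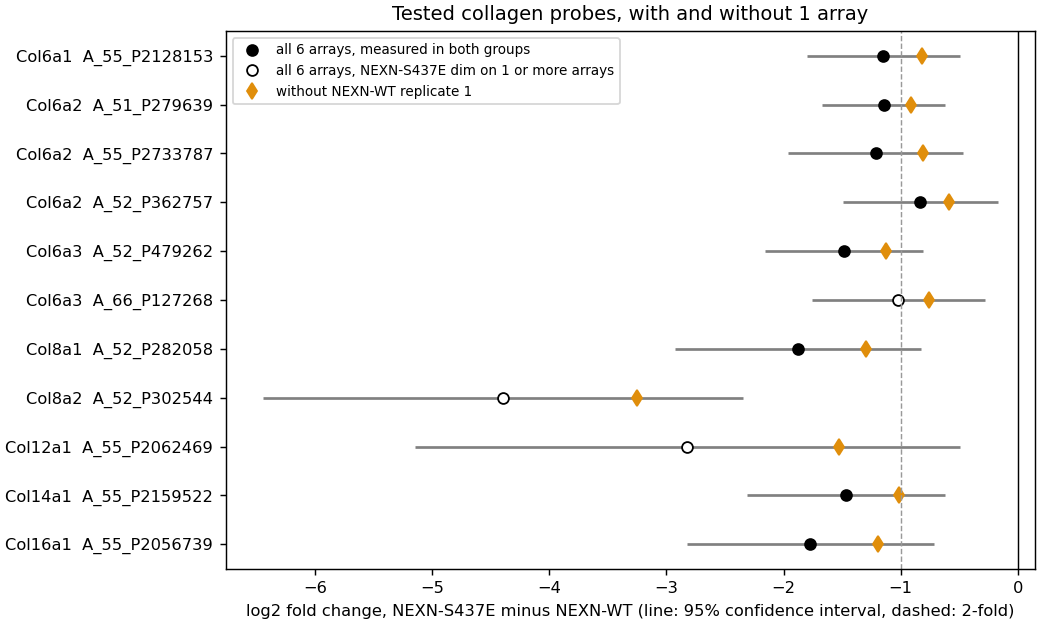
Log2 fold change (NEXN-S437E minus NEXN-WT, horizontal axis) of the 11 tested probes with its 95% confidence interval from limma, and the value without NEXN-WT replicate 1 as a diamond. Open circles mark probes not detected on 1 or more NEXN-S437E arrays, whose fitted change is uncertain in size, and every diamond lies nearer to 0 than its circle.

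The 6 lead probes detected on all arrays varied more among the NEXN-WT hearts (SD 0.40 to 1.02) than among the NEXN-S437E hearts (SD 0.05 to 0.20), and the SD was larger with NEXN-WT for 6 of 6. Over all tested probes the median SD was 0.23 and 0.16. On these 6 lead probes NEXN-WT replicate 1 lay 0.68 (*Col6a2*) to 1.74 (*Col8a1*) above the mean of replicates 2 and 3. The SD was not computed without it. On the *Col6a2* and *Col6a3* lead probes NEXN-WT replicates 2 and 3 lay closer together than the 3 NEXN-S437E hearts, and on the others further apart. The order within the NEXN-WT group was shared: replicate 1 was the highest and replicate 3 the lowest heart on the lead probe of all 8 genes, while on the third *Col6a2* probe replicate 2 was the lowest. Pearson's r between pairs of these 6 lead probes over the 6 arrays ran from 0.956 to 0.999 over 15 pairs, as a description, since every pair shares the same arrays, the difference between the groups and the height of NEXN-WT replicate 1. The genes whose pattern was most like the mean of the 3 collagen VI lead probes, among 18901 other probes with a symbol detected on all 6 arrays, were *Dapk2*, *Serpinf1*, *Col1a1*, *Col1a2* and *Ltbp2*, with r from 0.998 to 0.999 and with r of the deviations from the group means from 0.990 to 0.998. *Col8a1*, *Col16a1* and *Col14a1* ranked 57, 63 and 165 by the same measure (r 0.992, 0.992 and 0.984).

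Slide position was partly shared with the groups. The controls were all in slide row 1, together with replicate 1 of the NEXN-S437E group, and the other NEXN-S437E arrays were in row 2. Within row 1 the 6 lead probes detected on all arrays differed in the same direction, by -1.09 for *Col6a1*, -0.91 for *Col6a2*, -1.45 for *Col6a3*, -1.84 for *Col8a1*, -1.55 for *Col14a1* and -1.58 for *Col16a1*, with 1 NEXN-S437E array and no test. *Col8a2* and *Col12a1* were at background on that array. There the level with NEXN-WT was at least 9.11-fold and at least 2.83-fold higher, bounds that include NEXN-WT replicate 1, highest on both probes. A fit with the row as a block gives these same differences, since row 2 holds no control, and its p takes the lone NEXN-S437E array of row 1 to vary like the other arrays. Under that assumption, which could not be checked, 4 of the 8 probes detected on all arrays were past the 2-fold rule, those of *Col6a1*, *Col6a3*, *Col8a1* and *Col14a1* (1.55% of that background were lower), and nothing further is read from these calls.

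The rest of the collagen family gives the setting for these changes. Counts for the gene lists here and below include genes tested only through the NEXN-WT arrays, and nothing is read from the calls of those genes. Of 11 other chains of the same subfamilies, 9 had no detected lead probe on any array, among them *Col6a4*, *Col6a5* and *Col6a6*, the later-found α chains of collagen VI, and *Col10a1*, the close relative of collagen VIII. Only *Col9a2* and *Col22a1* were tested, and neither passed (adjusted p = 0.327 and 0.34 by limma). *Col9a2* changed by -1.57, and *Col22a1* was at background with NEXN-S437E and at least 3.65-fold higher with NEXN-WT. Leaving out NEXN-WT replicate 1 made these -0.67 and at least 1.25-fold. Of 25 remaining collagen chains, 18 were tested, 7 were lower by the 2-fold rule, none was higher, and their median change was -0.84. The 7 were the fibrillar chains *Col1a1* (-1.90), *Col1a2* (-1.57), *Col3a1* (-1.42) and *Col5a1* (-1.64), the dim fibrillar chains *Col2a1* and *Col5a2*, and *Col15a1* (-1.55) of basement membrane zones. *Col2a1* and *Col5a2* were above background with NEXN-WT only, where they were at least 1.56-fold and at least 3.19-fold higher. When NEXN-WT replicate 1 was left out, *Col5a2* was at least 1.63-fold higher and the mean of *Col2a1* did not exceed the background floor of the NEXN-S437E arrays. The basement membrane chains *Col4a1* (-0.84) and *Col4a2* (-0.81) did not reach 2-fold. Without NEXN-WT replicate 1 the count was again 7 and the median -0.71. This count again includes *Col2a1* and *Col5a2*, from whose calls nothing is read.

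Among 17 receptors and matrix partners of collagens VI, VIII, XII and XIV, 16 were tested, 6 were lower, none was higher, and the median was -0.66. The receptors lower by the 2-fold rule were *Antxr1* (-1.28), a receptor for collagen VI, and *Itga11* (-1.62), the α11 integrin of fibroblasts. *Antxr2*, its relative, was at 0.23, *Itgb1* at -0.17 and *Cspg4*, the NG2 proteoglycan, at -0.14. The matrix partners that were lower were *Bgn* (biglycan, -1.02), *Fmod* (fibromodulin, -3.37, detected on 2 of the 3 NEXN-S437E arrays), *Comp* (cartilage oligomeric matrix protein, -4.19) and *Fn1* (fibronectin, -1.42), while *Dcn* (decorin) was at -0.16 and *Tnxb* (tenascin X) at -0.51. Leaving out NEXN-WT replicate 1 ended the calls of *Antxr1* (-0.62), *Bgn* (-0.66) and *Fn1* (-0.93), left those of *Itga11* (-1.07), *Fmod* (-2.30) and *Comp* (-3.26), and gave a median of -0.44.

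Most genes that process collagens changed by less than 2-fold. Of 19 genes for collagen folding, hydroxylation, export and cleavage, 18 were tested, 4 were lower, none was higher, and the median was -0.36. The 4 were *P3h2* (prolyl 3-hydroxylase 2, -1.03) and the proteases *Bmp1* (just past 2-fold), *Mmp2* (-1.84) and *Mmp14*, the last at background with NEXN-S437E and at least 2.37-fold higher with NEXN-WT. The collagen chaperone *Serpinh1* was at -0.42, the prolyl 4-hydroxylase subunits *P4ha1* and *P4ha2* at -0.62 and -0.03, and *Mia3*, which exports procollagen, at -0.25. Without that replicate the calls of *P3h2* (-0.74) and *Bmp1* (-0.71) ended, and the median was -0.24.

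In whole heart tissue, fewer cells of a type and less RNA per cell cannot be told apart, so the markers of the cell types were read beside the collagens. The 10 resident fibroblast markers were all detected on all arrays, 2 of them (*Mfap5* -1.46 and *Pi16* -1.18) were lower by the 2-fold rule, and *Pdgfra* (-0.93), *Tcf21* (-0.36), *Dcn* (-0.16), *Gsn* (0.16) and *Scara5* (0.94) were not called. The median of the 10 was -0.62, and -0.43 with 1 called without NEXN-WT replicate 1. Their mean ran from 1.63 to 2.10 with NEXN-WT and from 1.27 to 1.46 with NEXN-S437E. Of 12 activated fibroblast markers, 11 were tested and 9 were lower, with a median of -3.01: *Postn* (-3.06), *Cthrc1* (-3.79, detected on 1 of the 3 NEXN-S437E arrays), *Ltbp2* (-3.88), *Comp* (-4.19), *Cilp* (-3.88), *Thbs4* (-3.01), *Meox1* (-1.58), *Lox* (-2.79) and *Fn1* (-1.42). The list had 8 lower genes and a median of -2.12 without NEXN-WT replicate 1, with *Postn* at -2.17, *Cthrc1* at -2.61, *Ltbp2* at -3.00, *Comp* at -3.26, *Cilp* at -3.27, *Thbs4* at -2.12, *Meox1* at -1.07 and *Lox* at -1.85, and *Fn1* (-0.93) was no longer called. *Cilp* passed the adjusted p (0.0433 by limma), *Acta2* was at -0.04, and *Comp* and *Fn1* are also among the matrix partners above. The mean of this list ran from 0.21 to 2.30 with NEXN-WT, highest in replicate 1 as for the collagens, and from -1.64 to -1.56 with NEXN-S437E. Of 6 T cell markers, all tested, 4 were lower (*Cd3d* -2.56, *Cd2* -1.75, *Lck* -2.14 and *Cd3g*, which was at background with NEXN-S437E and at least 2.30-fold higher with NEXN-WT), with list means of -3.13 to -2.62 and -4.63 to -4.26, lowest within the NEXN-WT group in replicate 1. *Cd3d*, *Cd3g* and *Lck* also passed the adjusted p (0.0268, 0.00118 and 0.0125 by limma). The *Cd3g* value is given as fitted and not as support, since this probe was tested only through the NEXN-WT arrays. None of 9 cardiomyocyte (median 0.34), 8 smooth muscle and pericyte (-0.19), 7 endothelial (-0.02) or 7 macrophage (-0.07) markers was called, nor any tested marker of epicardial cells, Schwann cells or adipocytes (2, 3 and 1 tested). The mean of the cardiomyocyte list ran from 4.69 to 5.03 with NEXN-WT and from 5.15 to 5.30 with NEXN-S437E, without overlap. The part of these cell types in the collagen differences was not tested.

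The mean of the 6 chains detected on all arrays was set against the mean of the 10 resident fibroblast markers on each array. The mean of the chains less that of the markers was -0.23, -0.91 and -1.39 with NEXN-WT and -1.64, -1.86 and -1.96 with NEXN-S437E. The groups did not overlap, so the 6 chains were lower also relative to these markers. Set against the 11 tested activated fibroblast markers, the same difference was -0.43, 0.33 and 0.29 with NEXN-WT and 1.18, 1.14 and 1.08 with NEXN-S437E, so relative to that list the chains were higher, again without overlap. No p is given, because the members were chosen with earlier results known.

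**Figure D3:**
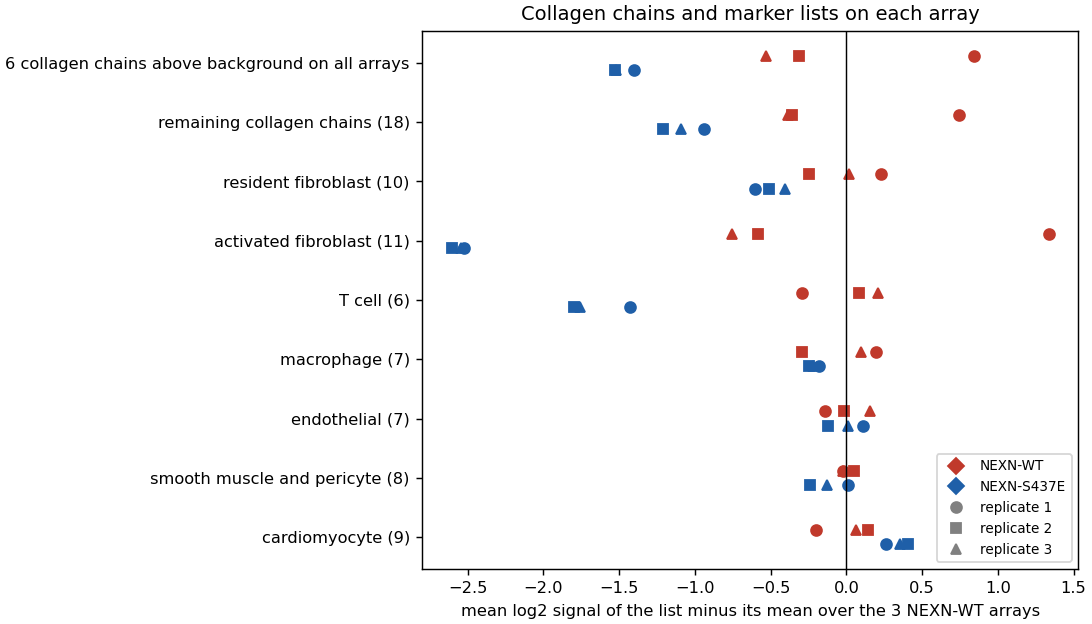
Mean log2 signal of the 6 collagen chains detected on all arrays and of 8 gene lists on each array, less the list's own mean over the 3 NEXN-WT arrays (horizontal axis), with the number of tested genes in brackets. The NEXN-S437E arrays (blue) lie below the NEXN-WT arrays (red) for the collagens, both fibroblast lists and T cells. The macrophage, endothelial and smooth muscle lists overlap, and the cardiomyocyte list is slightly above, also without overlap.

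Promoters of 6 of the 8 genes are in the RefSeq table used here (GRCm38.p6, 250 bases before to 50 after the start), in 7 windows, and *Col12a1* and *Col14a1* are not. Letters were searched on both strands and matches may overlap. The GC box GGGCGG, found in 35.7% of 32851 promoters, was present 4 times in *Col8a1* and in *Col8a2*, 2 times in *Col16a1* and 3 times and 1 time in the windows of *Col6a2*, and it was absent from those of *Col6a1* and *Col6a3*. TATAAA (13.6% of all promoters) and GTCTAGAC (0.213%) were in none of the 7 windows. The AP-1 letters TGANTCA (7.81%) were in *Col6a1*, CCAAT (37.4%) in *Col16a1*, CAGACA (21.0%) in *Col8a1* and CATTCC (14.7%) in 1 window of *Col6a2*. No motif was thus common to the 6 genes. The 250 bases before the start are shown for both collagen VIII chains, with 4 GC boxes each, these in capitals on either strand, and for *Col6a1* with the AP-1 letters in capitals.
Col8a1 (chr16:57754738-57754987, minus strand): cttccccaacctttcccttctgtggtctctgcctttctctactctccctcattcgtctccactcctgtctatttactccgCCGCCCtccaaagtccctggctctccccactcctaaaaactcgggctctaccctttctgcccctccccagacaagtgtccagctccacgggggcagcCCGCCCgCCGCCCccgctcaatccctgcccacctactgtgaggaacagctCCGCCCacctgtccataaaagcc
Col8a2 (chr4:126286544-126286793, plus strand): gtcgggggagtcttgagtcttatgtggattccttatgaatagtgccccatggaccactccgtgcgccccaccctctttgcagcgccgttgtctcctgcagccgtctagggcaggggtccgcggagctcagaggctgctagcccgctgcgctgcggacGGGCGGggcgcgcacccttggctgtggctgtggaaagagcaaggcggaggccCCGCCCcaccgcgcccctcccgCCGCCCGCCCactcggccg
Col6a1 (chr10:76726045-76726294, minus strand): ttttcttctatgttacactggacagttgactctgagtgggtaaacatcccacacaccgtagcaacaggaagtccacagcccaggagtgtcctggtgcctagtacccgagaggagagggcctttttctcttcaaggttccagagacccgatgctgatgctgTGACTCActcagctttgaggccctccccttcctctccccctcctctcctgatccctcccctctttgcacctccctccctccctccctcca

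**Figure D4:**
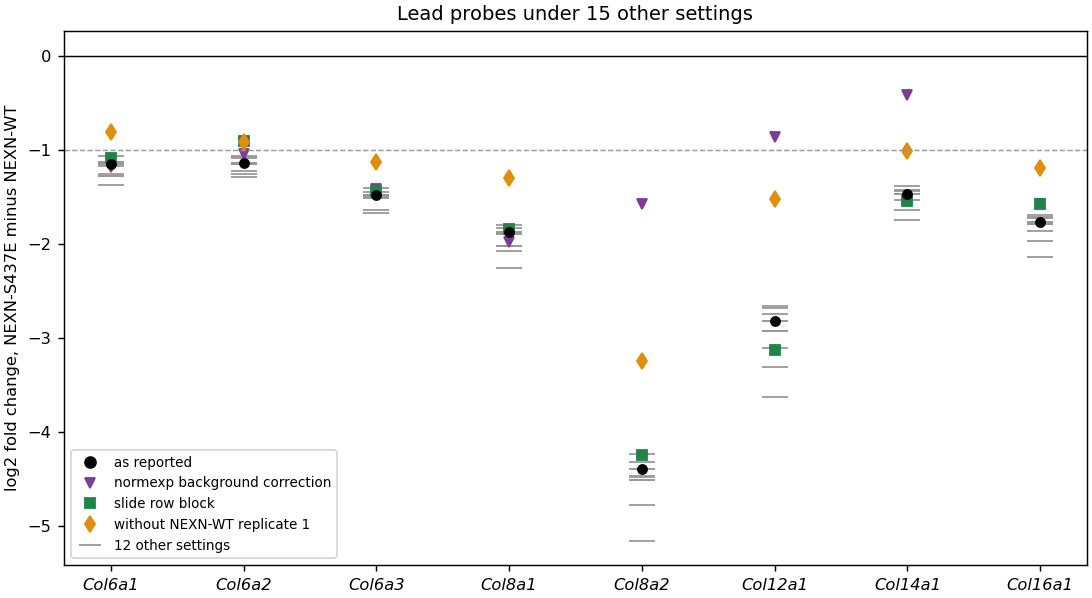
Log2 fold change (NEXN-S437E minus NEXN-WT, vertical axis) of each lead probe as reported and under up to 15 other settings of background correction, scaling, filter, block, test and arrays left out. All values are below 0, those without NEXN-WT replicate 1 are nearer to 0 than the reported value for every gene, and the normexp correction reduced the changes of the dim probes of *Col8a2*, *Col12a1* and *Col14a1* most.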

How the data were processed

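One array per mouse (3 per group) was analysed. The authors deposited spot intensities from Feature Extraction 10.7.1.1, background-subtracted and detrended within the array but not normalized between arrays. The authors also deposited a table of log2 values with identical distributions on the 6 arrays, by a method not given in the sources used here, which served as an alternative. Control and outlier spots were left out, log2 signals were scaled to each array's 75th percentile over probes detected on all 6 arrays (under 50% of spots were detected, 41.9% to 47.8%), spots of a probe were averaged, and probes that exceeded background (scanner flag) on every array of a group were tested with limma 3.58.1 (lmFit, eBayes) in R 4.3.3, with Benjamini-Hochberg adjustment. The fit was tested on simulated data. A bound ("at least") sets the bright group's mean against the higher of each dim array's own signal and its lowest detected signal. No spot was saturated, and 6 arrays limit the precision. Replicate numbers did not pair the mice (correlations of deviations -0.15, -0.03 and -0.18). Members and gene lists were chosen with earlier results of these data known. All probes of the members, called list genes and the 5 most alike genes are named. Protein features were not analysed here. Tables were made with pandas 2.3.3 and numpy 2.4.6, and figures with matplotlib 3.10.9, in Python 3.11.15.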

Additional observations from a re-analysis of the deposited data

How the results depend on the processing

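The 15 alternatives were another background correction (normexp, offset 50), 3 other scalings (the percentile over all probes, quantile normalization and the submitters' normalized values), 2 other filters, a replicate block, a slide row block, the methods' t-test and each of the 6 arrays left out. No tested collagen probe changed direction under any of them. Of 162 values of single collagen probes, 141 kept their side of the 2-fold rule, 19 no longer passed it and 2 newly did. The count of collagen probes past the 2-fold rule, 10 as reported, was 6 with normexp and 5 with the slide row block (which rests on 1 NEXN-S437E array, assumed to vary like the others), and 6 to 11 with 1 array left out, the 6 without NEXN-WT replicate 1, counts that include probes dim with NEXN-S437E. With the methods' t-test it was 8. The count past the adjusted p, 0 as reported, was 0 to 3 with 1 array left out, the 3 without NEXN-WT replicate 1. The median log2 fold change of the 8 lead probes, 2 of which were dim with NEXN-S437E, was -1.63 as reported and -1.95 to -1.16 with 1 array left out. With the replicate block the median was again -1.63 and 10 collagen probes passed, and the replicate block moved only the count of all probes past the adjusted p. The count of all probes past the 2-fold rule, 590 as reported, was 176 with normexp, 1948 with no filter on dim probes, 354 with only probes detected on all 6 arrays, and 375 to 917 with 1 array left out, the lowest without NEXN-WT replicate 1 and the highest without NEXN-WT replicate 3. The count past the adjusted p, 34 as reported, was 6 with no filter, 18 with probes detected on all 6 arrays, 12 with the replicate block, 0 with the slide row block, 0 with the methods' t-test, and 6 to 124 with 1 array left out, the lowest without NEXN-WT replicate 2 and the highest without NEXN-WT replicate 1. The share of higher calls among all calls was 20.7% as reported and 62.0% with no filter. The causes of these changes were not tested, apart from the smaller number of arrays or probes in some of them. Normexp shifted the median of all probes to 0.12 and no filter to 0.20, against 0.01 as reported. Under normexp *Col14a1* was at -0.42, *Col12a1* at -0.87 and *Col8a2* at -1.58, so the size of change of these dim probes depended on this setting. It also adds an offset of 50 to each signal, and the parts of subtraction and offset were not tested apart.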
